A study of Homo sapiens with 27 samples.

Results

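The subunits of the transcription factor NF-kappa-B, its inhibitors and the feedback genes that restrain it were followed here across every group of the series. They are 10 genes of the 24566 rows of the count table. NFKB1, NFKB2, RELA and RELB encode subunits, NFKBIA, NFKBIE and NFKBIZ encode inhibitor-family proteins, and TNFAIP3, TNIP1 and BIRC3 encode feedback proteins. The rows were found by Entrez gene ID, all 10 were in the table, and all 10 passed the filter on low counts in every fit. The group was chosen by a measured value, the high level of TNFAIP3 in the A431 vehicle control, so values of the members in vehicle control against untreated A431 cells are a description and carry no test.

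The series holds 27 RNA-seq libraries, 3 for each of 9 groups, all taken at 48 h. MDA-MB-231 cells come from a human breast adenocarcinoma and A431 cells from a human epidermoid carcinoma, and both are established lines. MDA-MB-231 cells were left untreated or received CKI (1 mg/ml), 5-FU (10 ug/ml) or both agents, which makes 4 groups. A431 cells were left untreated, received a vehicle control, or received CKI (1 mg/ml), doxorubicin or both agents, which makes 5 groups. CKI (Compound Kushen Injection) is an extract of the herbs Kushen and Baituling, 5-FU (5-fluorouracil) blocks thymidylate synthesis, and doxorubicin is an anthracycline that damages DNA. The sources used here do not say what the vehicle was, and the labels do not settle the dose of doxorubicin. Nothing in the labels says that replicates came from separate cultures, so p-values measure the spread between these libraries, which may be technical. In bulk RNA fewer cells of a type and less RNA per cell cannot be told apart.

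In resting cells NF-kappa-B dimers are held in the cytoplasm by inhibitor proteins. Signals from receptors of the tumor necrosis factor and interleukin-1 families activate a kinase complex that marks the inhibitors for degradation, and the freed dimers enter the nucleus. Many of their target genes encode the inhibitors, the precursor subunits and ubiquitin-editing proteins such as A20, so the pathway restrains itself through its own transcripts. In epithelial tumor cells the same pathway is known for driving chemokines, cytokines and survival proteins.

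Depth was 17757206 to 21756536 counts in the A431 libraries and 19871048 to 22809339 in the MDA-MB-231 libraries, and the lowest count of any member in any library was 179 (TNFAIP3, MDA-MB-231 CKI replicate 3). The labelled lines matched their markers. All 12 keratinocyte markers reached 1 CPM (counts scaled to library size) in A431, with a summed level of 7770 to 10100 CPM, against 4 of 12 and 86.2 to 279 CPM in MDA-MB-231. All 8 mesenchymal markers reached 1 CPM in MDA-MB-231, and 6 of 8 did in A431. Leukocyte markers summed to 5.48 to 21.6 CPM in A431 and 8.64 to 21.3 CPM in MDA-MB-231. PTPRC, the pan-leukocyte marker, was under 1 CPM on average in both lines, at 0 in untreated A431 cells and at 1.16 to 1.54 CPM under doxorubicin. Fibroblast markers summed to 13.8 to 64.6 CPM in A431 and 19.8 to 42.9 CPM in MDA-MB-231. MDA-MB-231 untreated replicate 1 stood apart from the other untreated libraries of that line, with a chi-square per degree of freedom of 70.8 and 81.8 against them, while those 2 libraries gave 2.65 against each other. The 3 vehicle control libraries were also further apart than other A431 replicates, at 9.9 to 28.3.

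The promoters of the members are shown because the kappa-B motif, the DNA element that NF-kappa-B dimers bind, can lie in promoters of target genes. The 10-letter kappa-B consensus was searched on both strands in the 250 bases before each RefSeq transcript start (GRCh38.p14). A match lay in 5.66% of the 24070 promoters of genes in the count table, and in at least 1 promoter of 7.21% of the 17555 genes with an entry. Of the members, 8 had a promoter entry, with 14 promoters in all, and 7 of the 8 genes and 9 of the 14 promoters held a match. RELA had 2 promoters and no match. RELB and NFKBIE had no entry. A match is a description of the letters only, and sites outside these 250 bases were not searched. The members were listed as genes of this pathway, so their share against all genes is a description. In the sequences below, printed 5′ to 3′ on the strand of the gene, capitals mark the match or matches, and the distance is from the first base of the match to the transcript start.

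TNFAIP3, chr6:137867139-137867213 on the plus strand, with adjoining matches 67 and 55 bases before the start, shown because its level chose the group:
TNFAIP3: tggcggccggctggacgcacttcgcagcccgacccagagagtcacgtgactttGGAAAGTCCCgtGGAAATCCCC
NFKBIA, chr14:35404750-35404869 on the minus strand, with a match 81 bases before the start, shown because it is the classical inhibitor:
NFKBIA: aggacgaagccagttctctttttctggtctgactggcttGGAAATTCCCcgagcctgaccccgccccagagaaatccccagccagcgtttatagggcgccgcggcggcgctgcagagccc
BIRC3, chr11:102317275-102317394 on the plus strand, with matches 199 and 135 bases before the start, shown because it was called in 7 comparisons:
BIRC3: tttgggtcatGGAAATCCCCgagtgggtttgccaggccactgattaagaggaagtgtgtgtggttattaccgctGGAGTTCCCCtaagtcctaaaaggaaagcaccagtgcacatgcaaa
Stretches of 30 bases show matches of the remaining members, for comparison, except 2 of NFKB2 that lay 176 and 21 bases before another of its starts. NFKBIZ has 1 at each of 2 starts, 223 and 239 bases before them, at chr3:101827757-101827786 and chr3:101849265-101849294, both on the plus strand:
NFKBIZ first start: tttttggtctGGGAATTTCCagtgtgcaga
NFKBIZ second start: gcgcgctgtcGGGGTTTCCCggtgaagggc
NFKB1 (chr4:102501300-102501329, plus strand, 49 bases before the start) and TNIP1 (chr5:151081057-151081086, minus strand, 42 bases before the start) have 1 match each in the stretches shown:
NFKB1: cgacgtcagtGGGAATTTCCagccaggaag
TNIP1: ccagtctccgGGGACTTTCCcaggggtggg
NFKB2 held overlapping matches 107 and 106 bases before 1 of its starts (chr10:102394461-102394490, plus strand), which the capitals show as 1 run, and another 78 bases before it (chr10:102394490-102394519):
NFKB2 upper: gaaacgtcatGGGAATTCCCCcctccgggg
NFKB2 lower: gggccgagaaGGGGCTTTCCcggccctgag

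On GRCh37, the build of the counts, the members lie on 8 chromosomes by the GENCODE v44 annotation lifted to that build. TNFAIP3 (chr6:138188351-138204451, plus strand) has 9 exons in its canonical transcript and BIRC3 (chr11:102188215-102210134, plus strand) has 9. NFKBIZ (chr3:101546835-101579866, plus strand) has 12 and NFKBIA (chr14:35870285-35873955, minus strand) has 6. RELB (chr19:45504719-45541450, plus strand) has 12 and NFKBIE (chr6:44225903-44233525, minus strand) has 6. Exons of TNFAIP3 overlap WAKMAR2, exons of NFKBIZ overlap NXPE3, exons of RELA overlap RELA-DT, and exons of BIRC3 overlap a gene with no name. Reads of these overlaps were not separated by strand here. The other 6 members had no exon overlap.

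Levels are given in CPM with TMM factors over all 27 libraries. Compared between genes per kilobase of the canonical transcript, NFKBIA (IkappaB-alpha, the classical inhibitor) led in untreated A431 cells at 108.0 CPM per kb, followed by TNIP1 at 86.5, NFKB2 at 52.1, NFKBIE at 40.7 and RELA at 38.6. NFKB1 at 23.4, TNFAIP3 at 17.7, RELB at 14.1, NFKBIZ at 11.6 and BIRC3 at 3.66 CPM per kb were lower. In untreated MDA-MB-231 cells TNIP1, a partner of A20, led at 127 CPM per kb and TNFAIP3 was last at 2.92, with NFKB2 (51.1) and RELA (50.7) closer to each other than the spread of their libraries.

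**Figure D1:**
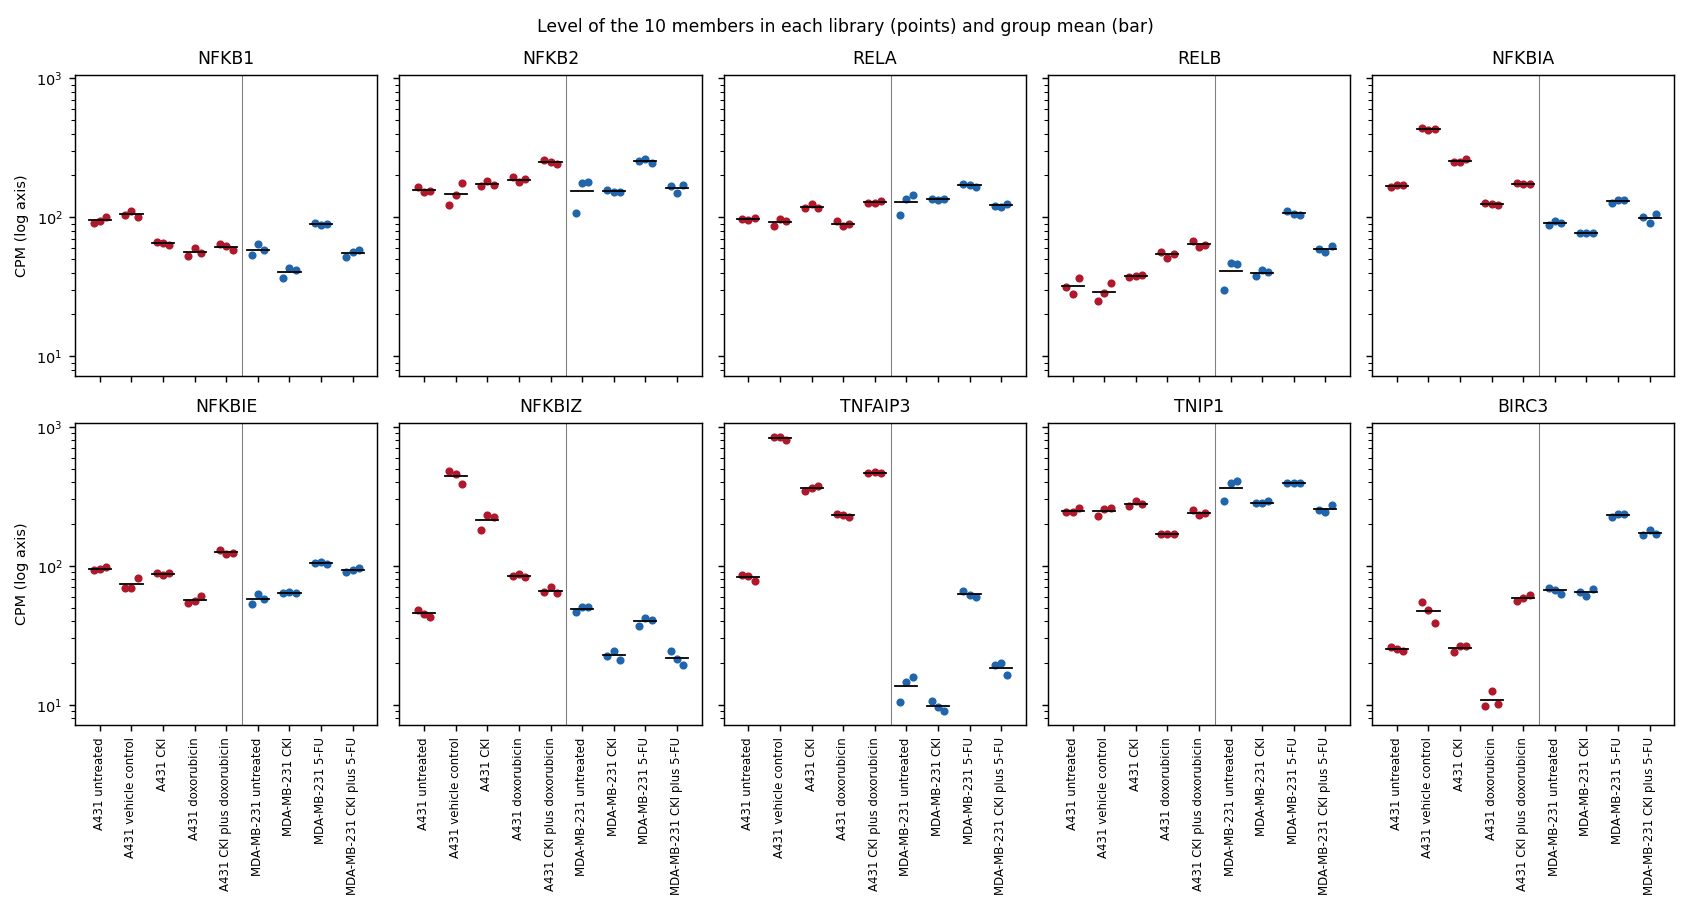
CPM of the 10 members on a log axis in each library, with A431 groups in red, MDA-MB-231 groups in blue and the group mean as a bar. TNFAIP3 and NFKBIZ span the widest range in A431, highest in the vehicle control and lowest in untreated cells, and BIRC3 is highest under 5-FU in MDA-MB-231.

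TNFAIP3, which encodes the ubiquitin-editing enzyme A20, had the widest range of the members, with group means 85.0-fold apart. Its 3 libraries measured 85.9, 84.0 and 77.4 CPM in untreated A431 cells, 845, 847 and 803 in the vehicle control, 343, 362 and 375 under CKI, 234, 232 and 226 under doxorubicin, and 469, 471 and 461 under CKI plus doxorubicin. In MDA-MB-231 they measured 10.5, 14.5 and 15.8 CPM untreated, 10.6, 9.68 and 9.03 under CKI, 66.2, 61.3 and 59.5 under 5-FU, and 19.2, 19.9 and 16.4 under CKI plus 5-FU. Ranked by mean, the groups ran from the A431 vehicle control (832 ± 25.0 CPM, SD, n = 3) through CKI plus doxorubicin, CKI, doxorubicin and untreated A431 (82.4 ± 4.49) to 5-FU, CKI plus 5-FU, untreated and CKI in MDA-MB-231 (9.78 ± 0.803). The libraries of neighbouring groups in this order did not overlap except between untreated and CKI-treated MDA-MB-231.

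NFKBIZ encodes IkappaB-zeta, an atypical nuclear member of the inhibitor family that helps switch on a subset of targets. It measured 48.3, 44.6 and 43.1 CPM in untreated A431 cells, 482, 455 and 389 in the vehicle control, 180, 231 and 225 under CKI, 83.9, 87.6 and 83.2 under doxorubicin, and 64.2, 70.7 and 63.3 under CKI plus doxorubicin. In MDA-MB-231 it measured 46.7, 50.6 and 50.2 CPM untreated, 22.6, 24.4 and 21.0 under CKI, 36.8, 41.8 and 40.7 under 5-FU, and 24.2, 21.2 and 19.4 under CKI plus 5-FU. The untreated groups of both lines overlapped, as did CKI and CKI plus 5-FU, and the other neighbours in rank did not.

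BIRC3 encodes cIAP2, a ubiquitin ligase that relays receptor signals and protects cells from death. Its libraries measured 69.8, 67.0 and 63.1 CPM in untreated MDA-MB-231 cells, 64.7, 60.2 and 68.1 under CKI, 226, 234 and 237 under 5-FU, and 166, 180 and 170 under CKI plus 5-FU. In A431 they measured 26.2, 25.1 and 24.3 CPM untreated, 55.0, 48.2 and 38.9 in the vehicle control, 24.1, 26.5 and 26.5 under CKI, 9.79, 12.6 and 10.2 under doxorubicin, and 55.6, 58.3 and 62.0 under CKI plus doxorubicin. Both 5-FU groups lay above every other group, and doxorubicin alone lay below every other group.

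The remaining members moved over narrower ranges. Group means were 1.73-fold apart at most for NFKB2, 1.89-fold for RELA, 2.22-fold for NFKBIE, 2.32-fold for TNIP1, 2.59-fold for NFKB1, 3.69-fold for RELB and 5.59-fold for NFKBIA. RELA, the p65 subunit that carries the main activation domain, stayed between 86.2 and 174 CPM in all 27 libraries. MDA-MB-231 untreated replicate 1 was the lowest of its group for NFKB2 (107 CPM against 176 and 179), RELA (103 against 135 and 144), RELB (30.02 against 46.6 and 45.9) and TNIP1 (293 against 396 and 405).

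Fold changes come from a fit over all groups of a line, and a gene is called where its Benjamini-Hochberg adjusted p over all genes tested (edgeR's quasi-likelihood test) is under 0.05 and its log2 fold change exceeds 1 in size. Of 13 comparisons other than the one that chose the group, TNFAIP3 met these thresholds in 9, of which 5 rest on untreated or vehicle control A431 libraries and are descriptions, BIRC3 in 7, NFKBIZ in 6, NFKBIE in 2 and RELB in 1. With TNFAIP3 counted throughout, the members had 16 higher and 9 lower calls in 130 gene tests (12.3% and 6.92%). All genes in the same comparisons gave 9.92% and 8.56%, so these totals lay near the background. NFKB1, NFKB2, RELA, NFKBIA and TNIP1 passed in no comparison by edgeR. Their adjusted p alone was under 0.05 in 10, 7, 10, 11 and 7 comparisons respectively, with log2 fold changes between -0.86 and 0.94. Depending on the comparison, 31.4% to 80.6% of all genes passed at an adjusted p alone.

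5-FU raised 3 members in MDA-MB-231 cells. TNFAIP3 was 4.57-fold higher than in untreated cells (log2 fold change 2.19 ± 0.131, SE, adjusted p = 8.53e-08), BIRC3 3.49-fold (1.80 ± 0.0658, adjusted p = 2.43e-09) and RELB, the subunit that pairs with p52, 2.62-fold (1.39 ± 0.131, adjusted p = 2.95e-06). RELB measured 111, 106 and 104 CPM under 5-FU against 30.02, 46.6 and 45.9 untreated, and the groups of these 3 members did not overlap. Among all genes 6.01% were called higher and 7.31% lower, so 3 of 10 members stood against 6.01%. At an adjusted p alone 9 of 10 members passed, against 57.1% of all genes.

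Among the members below the fold threshold, the inhibitors NFKBIE and NFKBIA had log2 fold changes of 0.86 and 0.53 and the subunits NFKB2, NFKB1 and RELA of 0.72, 0.61 and 0.42. TNIP1, whose product binds A20, was at 0.11 (adjusted p = 0.355). NFKBIZ was at -0.31 (adjusted p = 0.0113), with all 3 treated libraries below all 3 untreated ones. Without MDA-MB-231 untreated replicate 1, TNFAIP3, BIRC3 and RELB gave 2.04, 1.835 and 1.21, and the same 3 members were called.

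CKI lowered NFKBIZ in MDA-MB-231 cells, to 0.458-fold of untreated (log2 fold change -1.13 ± 0.0923, adjusted p = 3.41e-06), with no overlap between groups. That is 1 member called lower of 10, where 2.21% of all genes were called lower and 3.76% higher. In this comparison 5 of 10 members passed at an adjusted p alone, against 36.2% of all genes. Next to NFKBIZ were NFKB1, the precursor of p50, at -0.54, TNFAIP3 at -0.49, TNIP1 at -0.37 and NFKBIA at -0.25, while NFKBIE, NFKB2, RELA, RELB and BIRC3 lay within 0.15 of 0. Without untreated replicate 1, NFKB2 (-0.21, adjusted p = 0.00108) and RELB (-0.22, adjusted p = 0.0039) also passed at an adjusted p alone.

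Adding CKI to 5-FU lowered TNFAIP3 to 0.297-fold of its level under 5-FU alone (log2 fold change -1.75 ± 0.128, adjusted p = 7.1e-07). The other 9 members had log2 fold changes from -0.88 (NFKBIZ) to -0.16 (NFKBIE). For each of the 10 members all 3 libraries with CKI lay below all 3 without it. How many of all genes were separated in this way was not counted, so this carries no background. The median log2 fold change was -0.63 over the members and 0.006 over all genes. All 10 passed at an adjusted p alone, the highest being 0.0457 for NFKBIE, against 50.4% of all genes in either direction. NFKBIE did not pass with a block for replicate number (adjusted p = 0.0546). With offsets for GC content and transcript length it was at -0.045 (adjusted p = 0.501). By both thresholds 1 of 10 was called lower, where 4.51% of all genes were called lower and 5.26% higher. RELB stood at -0.85, NFKB1 at -0.69, NFKB2 at -0.64, TNIP1 at -0.63, RELA at -0.49, BIRC3 at -0.43 and NFKBIA at -0.41.

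Against CKI alone, CKI plus 5-FU had BIRC3 2.69-fold higher (log2 fold change 1.43 ± 0.0653, adjusted p = 4.98e-07), and TNFAIP3 at 0.93 ± 0.136 fell short of the fold threshold. That is 1 of 10 called higher against 1.26% of all genes, with 2.54% of all genes called lower. At an adjusted p alone 6 of 10 passed, against 42.1%. In this comparison fold changes over all genes ran with GC content (Spearman's rho -0.52 over 13895 genes), and BIRC3, which has the lowest GC content of the members at 35.8%, gave 1.155 with offsets for GC content and transcript length. Without CKI plus 5-FU replicate 3, 2 members were called.

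The interaction of CKI and 5-FU asks whether the 5-FU response differed with CKI present. For TNFAIP3 it did, with a log2 difference of -1.26 ± 0.188 (adjusted p = 0.000458), and that was 1 of 10 members called lower, where 3.81% of all genes were called lower and 3.04% higher. RELB (-0.81), NFKB2 (-0.63), RELA (-0.56), BIRC3 (-0.37) and NFKBIE (-0.31) also passed at an adjusted p alone, which makes 6 of 10 members against 31.4% of all genes.

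**Figure D2:**
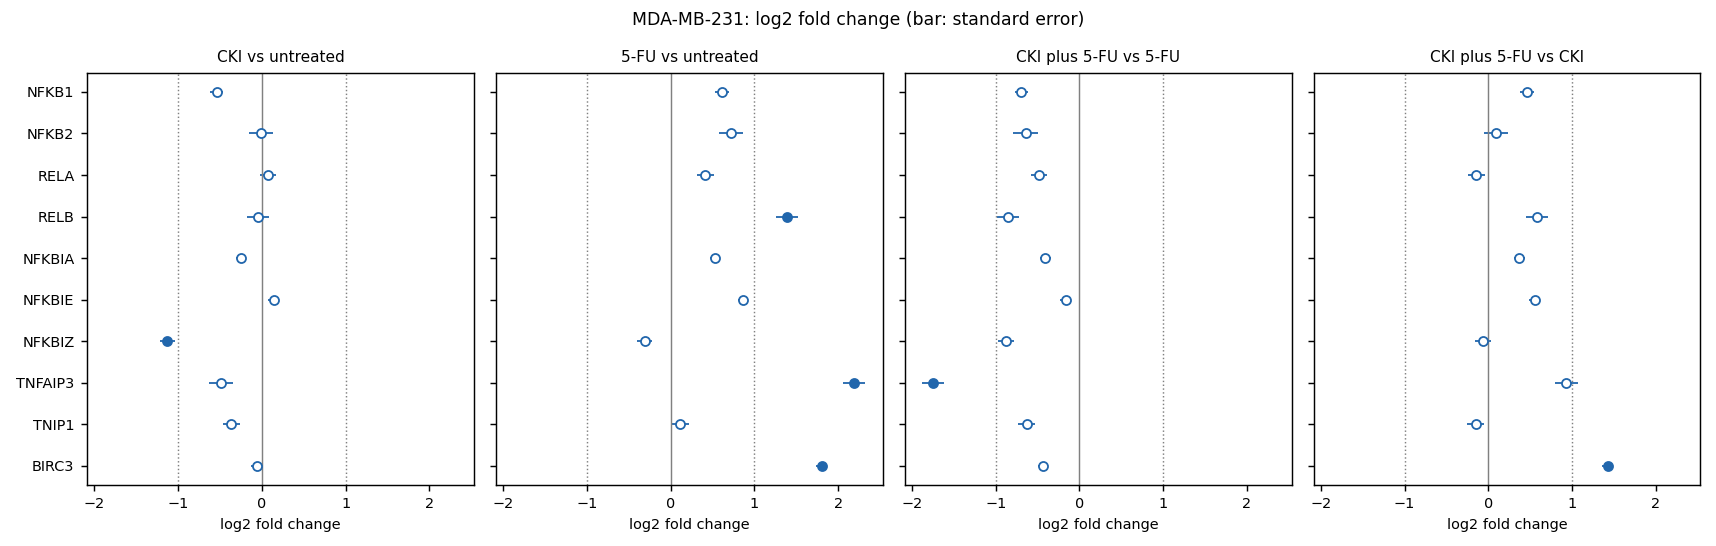
Log2 fold change of each member in 4 MDA-MB-231 comparisons, with its standard error as a bar, filled where called and open where not. Under 5-FU the points lie to the right for TNFAIP3 (2.19), BIRC3 (1.80) and RELB (1.39). When CKI was added to 5-FU all 10 lie left of 0, and only TNFAIP3 was called. NFKBIE lies nearest to 0 there, at -0.165, and was at -0.045 with offsets for GC content and transcript length.

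In A431 the vehicle control is the comparison that chose the group, and it is described without a test. TNFAIP3 was 10.2-fold and NFKBIZ 9.82-fold higher in the vehicle control than in untreated cells (log2 fold changes of 3.35 and 3.29). NFKBIA followed at 2.57-fold, measuring 438, 422 and 429 CPM against 166, 169 and 170, and BIRC3 at 1.89-fold. The 4 subunits, NFKBIE and TNIP1 had log2 fold changes between -0.37 and 0.15. Among all genes 1.05% were called higher and 1.5% lower, and no call is given for the members because this comparison chose them. Fold changes of this comparison ran with GC content (rho -0.58 over 15741 genes) and transcript length (rho 0.31). With offsets for both, TNFAIP3 was at 3.24, NFKBIZ at 3.13, NFKBIA at 1.48 and BIRC3 at 0.54, while NFKB2, RELA and RELB moved from -0.09, -0.06 and -0.12 to 0.23, 0.20 and 0.38.

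In the main fit the direction of the A431 response to CKI turned on the control for TNFAIP3, NFKBIZ, NFKBIA and NFKBIE. The other 6 members kept their sign. With offsets for GC content and transcript length NFKBIE did not turn, at 0.008 against untreated cells and 0.047 against the vehicle control. With the same offsets NFKB2 (0.179 and -0.046) and TNIP1 (0.207 and -0.052) did, so the turn of these 3 small values depended on the processing. TNFAIP3 values in A431 that rest on the untreated or vehicle control libraries share them with the comparison that chose the group, so they are given without a p. Against untreated cells TNFAIP3 was 4.10-fold higher under CKI (log2 fold change 2.03), and against the vehicle control it was at 0.403-fold (-1.31). NFKBIZ, which shares those libraries too, was 4.38-fold higher than untreated (2.13 ± 0.0887, adjusted p = 1.32e-15) and at 0.446-fold of the vehicle control (-1.16 ± 0.0819, adjusted p = 1.71e-11). NFKBIA, at 251, 250 and 261 CPM under CKI, lay above every untreated library (log2 fold change 0.50) and below every vehicle control library (-0.86). CKI-treated libraries of all 3 genes lay between the controls, with no overlap on either side.

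NFKB1 lay below both controls with no overlap, at -0.64 against untreated (adjusted p = 6.7e-09) and -0.79 against the vehicle control (adjusted p = 1.93e-10), short of the fold threshold in each. BIRC3 was at -0.07 against untreated (adjusted p = 0.6) and -0.99 against the vehicle control, and with GC content and length offsets the latter passed the fold threshold and was called (-1.002). Against untreated cells the same offsets gave BIRC3 -0.467 (adjusted p = 2.69e-06). NFKB2, RELA, RELB, NFKBIE and TNIP1 lay between -0.21 and 0.27 in both.

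Without TNFAIP3, which has no test here, 1 of the 9 members tested (NFKBIZ) was called higher against untreated cells, where 12% of all genes were called higher and 10.4% lower. At an adjusted p alone 5 of 9 passed, against 67% of all genes. Against the vehicle control 1 of 9 (NFKBIZ) was called lower, where 8.22% of all genes were called lower and 11.3% higher, and 7 of 9 passed at an adjusted p alone against 65% of all genes.

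**Figure D3:**
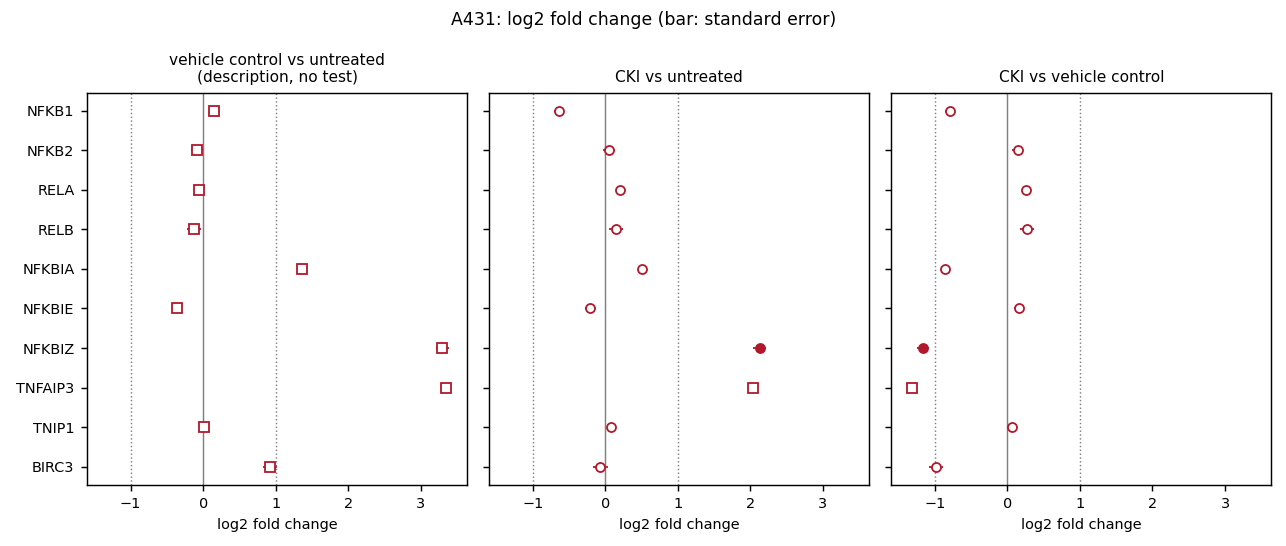
Log2 fold change with its standard error for the members in A431: vehicle control against untreated, CKI against untreated, and CKI against vehicle control. Squares are descriptions with no test, filled circles are called and open circles are not. TNFAIP3 and NFKBIZ lie at 2.03 and 2.13 against untreated cells and at -1.31 and -1.16 against the vehicle control.

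Under doxorubicin BIRC3 fell in A431, to 0.423-fold of untreated (log2 fold change -1.24 ± 0.115, adjusted p = 1.29e-09), and TNFAIP3 was at 2.75-fold (log2 fold change 1.46), without a test for the reason given. NFKBIZ (0.88) and RELB (0.73) had positive and NFKB1 (-0.79), NFKBIE (-0.78), TNIP1 (-0.57), NFKBIA (-0.46) and RELA (-0.14) negative values under the fold threshold. Of the 9 members tested 1 was called lower, where 23% of all genes were called higher and 14.3% lower. At an adjusted p alone 9 of 9 passed, against 80.6% of all genes.

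Markers of other cell types moved in the same comparison. Of 5 leukocyte markers tested 3 were called higher (median log2 fold change 3.35), and the 11 listed summed to 20.1 to 21.6 CPM under doxorubicin against 9.44 to 10.8 in untreated cells, where PTPRC, CD3D and LYZ were among those at 0. Of 6 fibroblast markers tested 4 were called higher and 1 lower (median 3.38), and the 8 listed summed to 43.5 to 49 CPM against 22 to 29.5. Of 12 keratinocyte markers 4 were called higher and 3 lower, with sums of 9500 to 9740 against 9070 to 10100 CPM. CKI against untreated A431 cells also had 2 of 6 fibroblast markers called higher and 0 lower (median 1.65), with sums of 48.4 to 52.7 CPM under CKI. In that comparison 1 of 5 leukocyte markers was called higher (median 0.39), with sums of 8.31 to 11.5 CPM. Among all genes 23% were called higher and 14.3% lower under doxorubicin, and 12% and 10.4% under CKI. Over the A431 libraries 3 of the 11 leukocyte and 1 of the 8 fibroblast markers averaged at least 1 CPM, so most of these markers were near the floor. The part of these markers in the members' values was not tested.

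Set against the vehicle control instead, doxorubicin had TNFAIP3 at -1.89, NFKBIZ at -2.42 and NFKBIA at -1.82, and BIRC3 at -2.16. With offsets for GC content and length, RELB reached 1.14 against untreated cells and was called. The scaling by library size alone left BIRC3 at -0.90, under the fold threshold.

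Adding CKI to doxorubicin raised 3 members above doxorubicin alone, and this comparison uses none of the libraries that chose the group. BIRC3 was 5.47-fold higher (log2 fold change 2.45 ± 0.108, adjusted p = 9.45e-15), NFKBIE, which encodes IkappaB-epsilon, 2.25-fold (1.17 ± 0.0664, adjusted p = 7.57e-13) and TNFAIP3 2.05-fold (1.04 ± 0.0513, adjusted p = 7.1e-14). NFKBIE measured 130, 122 and 123 CPM against 53.5, 55.9 and 60.1 under doxorubicin alone, and none of these 3 members overlapped between groups. TNFAIP3 was at 0.97 with offsets for GC content and transcript length, just under the fold threshold. RELA (0.53), TNIP1 (0.53), NFKBIA (0.51), NFKB2 (0.45), RELB (0.26) and NFKB1 (0.15) had positive values under the fold threshold, and NFKBIZ was at -0.34 (adjusted p = 0.00141). That is 3 of 10 called higher against 6.89% of all genes, with 8.03% of all genes called lower, and 10 of 10 at an adjusted p alone against 63.6%.

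Against CKI alone, CKI plus doxorubicin had NFKBIZ at 0.331-fold (log2 fold change -1.60 ± 0.0854, adjusted p = 1.69e-13) and BIRC3 at 2.42-fold (1.28 ± 0.0985, adjusted p = 9.56e-11). Those were 1 of 10 members lower, where 9.06% of all genes were called lower, and 1 of 10 higher, where 16.6% were called higher. At an adjusted p alone 8 of 10 members passed, against 73.3%. RELB (0.85), NFKB2 (0.61), NFKBIE (0.60) and TNFAIP3 (0.46, adjusted p = 3.42e-08) lay above 0 under the fold threshold, and RELB reached 1.15 and was called with the offsets for GC content and length. Here 4 of 5 leukocyte markers were called higher (median log2 fold change 2.38), with sums of 18.1 to 20.2 against 8.31 to 11.5 CPM, and 4 of 6 fibroblast markers were called higher and 1 lower (median 2.36), with sums of 57.6 to 64.6 against 48.4 to 52.7 CPM, and their part was not tested.

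**Figure D4:**
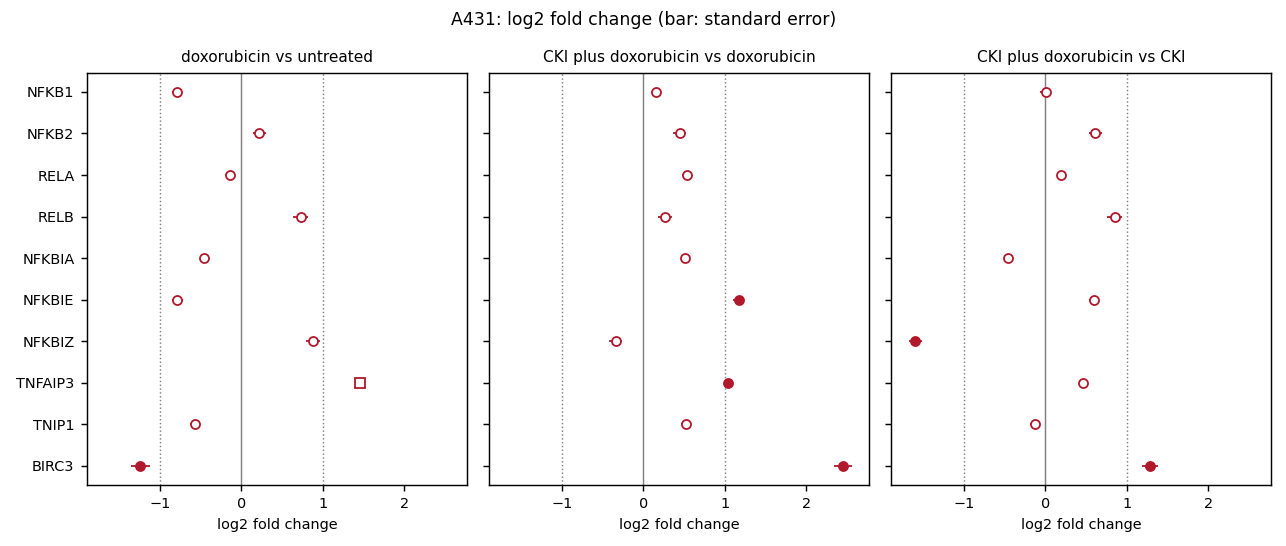
Log2 fold change with its standard error for the members in A431: doxorubicin against untreated, CKI plus doxorubicin against doxorubicin, and CKI plus doxorubicin against CKI. Filled circles are called, open circles are not, and the square is TNFAIP3 against untreated cells, a description. BIRC3 lies at -1.24, 2.45 and 1.28 in the 3 panels, and NFKBIZ at -1.60 in the last.

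The interaction of CKI and doxorubicin differed for 3 members. BIRC3 (log2 difference 2.52 ± 0.151, adjusted p = 4.84e-12) and NFKBIE (1.38 ± 0.0933, adjusted p = 3.06e-11) responded to the combination above, and NFKBIZ (-2.47 ± 0.123, adjusted p = 2.24e-13) below, the sum of the single log2 changes. TNFAIP3 was at -0.997, a description without a test because it rests on the untreated A431 libraries. Of the 9 members tested 2 were called higher, where 8.56% of all genes were, and 1 lower, where 10.9% were. At an adjusted p alone 7 of 9 passed, against 57.4%. Taken against the vehicle control NFKBIZ was at 0.82 and TNFAIP3 at 2.35, so the direction of both depended on the control. NFKBIA went from 0.005 (adjusted p = 0.965) to 1.37 (adjusted p = 3.41e-13) and was called with that control, while BIRC3 (3.44) and NFKBIE (1.01) were called with either.

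Between the untreated lines, TNFAIP3 was 6.27-fold higher in A431 than in MDA-MB-231 (log2 fold change 2.65), given without a p because it rests on the untreated A431 libraries. BIRC3 was at 0.392-fold (log2 fold change -1.35 ± 0.0762, adjusted p = 1.76e-09). NFKBIA at 0.94, NFKBIE at 0.78 and NFKB1 at 0.75 were on the A431 side, and TNIP1 at -0.50 and RELA at -0.34 on the MDA-MB-231 side, all under the fold threshold, while NFKB2, NFKBIZ and RELB overlapped. Without MDA-MB-231 untreated replicate 1, NFKB2 moved from 0.08 to -0.12. RELB moved from -0.305 (adjusted p = 0.063) to -0.483 (adjusted p = 1.15e-06) when that library was left out. Of the 9 members tested 1 was called lower, where 20.4% of all genes were called lower and 22.5% higher, and 6 of 9 passed at an adjusted p alone against 78.6%.

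The cell lines differed in their response to CKI most for NFKBIZ, with a log2 difference of 3.27 ± 0.136 (A431 minus MDA-MB-231, adjusted p = 3.84e-09), from 2.13 in A431 and -1.13 in MDA-MB-231. TNFAIP3 had a difference of 2.53, with 2.03 in A431 and -0.49 in MDA-MB-231. Taken against the vehicle control these were -0.03 for NFKBIZ (adjusted p = 0.916) and -0.82 for TNFAIP3, and 0 members were called by edgeR. NFKBIA at -0.60, BIRC3 at -0.92 and, in the other direction, TNIP1 at 0.44 (adjusted p = 0.03) passed at an adjusted p alone. With untreated cells as the control NFKBIA was at 0.76, and at 1.02 and called with the offsets. Of the 9 members tested 1 (NFKBIZ) was called higher, where 8.87% of all genes were called higher and 9.62% lower, and 4 of 9 passed at an adjusted p alone against 47%.

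The genes around the members were taken from lists of the pathway, 10 ligands, 20 receptors and adaptors, 4 kinase complex genes, 3 non-canonical genes, 12 other brakes, 3 genes of the linear ubiquitin complex, 6 other subunit and inhibitor genes, and 30 target genes. These lists were chosen with earlier results of these data known, so their shares against all genes are descriptions. The target genes (chemokines, cytokines, adhesion and survival genes) had 69 higher and 75 lower calls in 367 gene tests over the 13 comparisons, or 18.8% and 20.4%, against 9.85% and 8.55% for all genes in the same comparisons. In MDA-MB-231 under 5-FU 10 of 29 tested were called higher and 1 lower, against 6.01% and 7.31% of all genes, with a median log2 fold change of 0.50 against -0.004 over all genes. CXCL8, the neutrophil chemokine interleukin-8, was at 2.61, TRAF1, a survival adaptor, at 2.46, PTGS2, the inducible cyclooxygenase, at 2.15 and CXCL3 at 2.02.

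When CKI was added to 5-FU, 15 of the 29 target genes were called lower and 0 higher by edgeR, against 4.51% and 5.26% of all genes, and by DESeq2 also 15 and 0, with 23 at an unadjusted p under 0.05 and a median of -1.12 against 0.006 over all genes. CXCL8 was at -1.76, PTGS2 at -1.70, IL6 at -1.31 and TRAF1 at -1.23. CKI against untreated MDA-MB-231 had 5 of 29 lower and 0 higher by edgeR and by DESeq2, against 2.21% and 3.76% of all genes, with 20 at an unadjusted p under 0.05 (median -0.45), with VCAM1, an adhesion molecule, at -2.52 and the chemokines CXCL2 and CXCL1 at -1.39 and -1.04. CKI plus 5-FU against CKI had 3 of 29 higher against 1.26% of all genes (median 0.22), and the interaction had 1 higher and 5 lower against 3.04% and 3.81% (median -0.53). Some of these comparisons share libraries, so their counts are not independent of each other. The share of all genes at an unadjusted p under 0.05 was not computed.

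In A431 CKI against untreated cells had 7 of 27 target genes higher and 8 lower, against 12% and 10.4% of all genes (median -0.23), with PLAU, the urokinase protease, at 2.02 and LCN2 and CXCL1 at -1.65 and -1.54. CKI against the vehicle control had 2 higher and 12 lower, against 11.3% and 8.22% (median -0.75), with CXCL1 at -2.76 and CXCL2 at -2.72. In the vehicle control against untreated cells, described without a test, CXCL8 was at 3.32, CXCL2 at 2.47, CSF2 at 2.22 and CXCL1 at 1.22.

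Under doxorubicin 5 of 27 target genes were called higher and 6 lower, against 23% and 14.3% of all genes, so these counts lay near the background (median 0.06). The cytokine IL6 was at 5.66, the interferon-inducible chemokine CXCL10 at 4.60 and the adhesion molecule ICAM1 at 1.79. CKI plus doxorubicin had 7 higher and 2 lower against doxorubicin, where 6.89% and 8.03% of all genes were (median 0.09), with BCL2A1, a survival gene of the BCL2 family, at 3.10, and 6 higher and 1 lower against CKI, where 16.6% and 9.06% were (median 0.28), with BCL2A1 at 3.98. The CKI and doxorubicin interaction had 8 higher and 4 lower, against 8.56% and 10.9% of all genes (median -0.10). Untreated A431 had 10 of 30 higher and 13 lower than untreated MDA-MB-231, against 22.5% and 20.4% (median -0.60). The cell line by CKI interaction had 10 of 30 higher and 3 lower, against 8.87% and 9.62% (median 0.65).

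**Figure D5:**
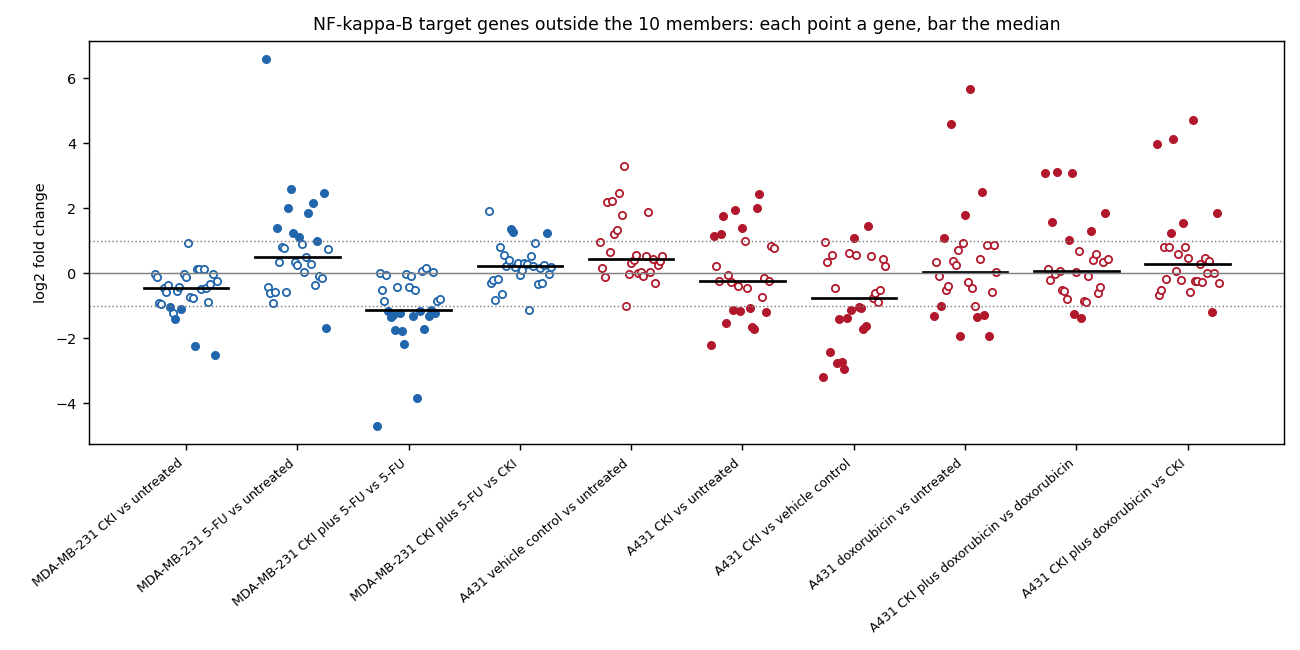
Log2 fold change of the NF-kappa-B target genes outside the 10 members, 1 point a gene, filled where called, with the median as a bar, in MDA-MB-231 (blue) and A431 (red). The median is 0.50 under 5-FU and -1.12 when CKI was added to 5-FU, and points of the vehicle control comparison are unfilled because it has no test here.

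Among the ligands, IL1A, the interleukin-1 alpha cytokine, was at 1.96 under CKI and 3.49 under 5-FU in MDA-MB-231 (adjusted p = 1.36e-06 and 4.67e-09), and IL1B was at 1.78 under 5-FU. In A431 under CKI IL1B was at 1.22 against untreated cells and -0.31 against the vehicle control, and IL1A at 0.85 and -1.16, so both turned with the control. TNF, the ligand the family is named for, was at -1.31 against the vehicle control (adjusted p = 0.00151) and at 0.88 with overlapping libraries against untreated cells. IL1B was at -1.87 under doxorubicin with IL1A at -1.30. IL1A and IL1B were higher under CKI plus doxorubicin than under doxorubicin (1.34 and 1.66). In the vehicle control, without a test, IL1A, IL1B and TNF were at 2.02, 1.53 and 2.19. Over the 13 comparisons the ligands had 20 higher and 21 lower calls in 92 gene tests (21.7% and 22.8%), against 10.5% and 8.91% for all genes in the same comparisons.

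Receptors and adaptors had 18 higher and 8 lower calls in 260 gene tests (6.92% and 3.08%), both below the 9.92% and 8.56% of all genes. TAB3, an adaptor of the kinase TAK1, was at 2.06 under CKI against untreated A431 cells and at 1.47 against the vehicle control, the same direction against both. TNFRSF1B, a TNF receptor, was at 3.61 under doxorubicin, where TNFRSF1A (-1.24), TRAF2 (-1.65) and LTBR (-1.18) were lower. IRAK2, which relays interleukin-1 receptor signals, was at 1.33 under 5-FU in MDA-MB-231.

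Other brakes had 18 higher and 6 lower calls in 150 gene tests (12% and 4%), against 9.8% and 8.5% of all genes. CYLD, a deubiquitinase that restrains the pathway, was at 1.30 under CKI and 1.52 under doxorubicin against untreated A431 cells, and at 1.07 under CKI against the vehicle control. SQSTM1, a ubiquitin-binding adaptor, was at 1.09 and 1.12 under CKI against the same controls. TNIP3, a relative of TNIP1, was at 1.61 under 5-FU in MDA-MB-231, where the decoy kinase IRAK3 was at -1.17 under CKI.

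Other subunit and inhibitor genes had 9 higher and 7 lower calls in 78 gene tests (11.5% and 8.97%), near the 9.92% and 8.56% of all genes. REL, which encodes the subunit c-Rel, was at 1.30 and the inhibitor NFKBIB at 1.13 under 5-FU in MDA-MB-231. NFKBID was at -1.39 under CKI, 1.02 under doxorubicin, and -1.16 under CKI plus doxorubicin against doxorubicin in A431.

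The kinase complex genes had 0 calls in 52 gene tests by edgeR, where 9.92% of all genes were called higher and 8.56% lower. DESeq2 gave 1 call. An unadjusted p under 0.05 was seen in 37 of the tests, and the share of all genes at that threshold was not computed. The non-canonical genes had 1 lower call in 39 gene tests, or 2.56% (BIRC2 at -2.15 in untreated A431 against untreated MDA-MB-231). The linear ubiquitin complex had 1 higher call in 39, or 2.56% (RBCK1 at 1.20 in the same comparison). Both stood against the same 9.92% and 8.56% of all genes.

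The pattern of TNFAIP3 over the 27 libraries, each taken relative to the untreated libraries of its own line, was ranked against 13593 genes. CXCL8 was most like it (Pearson's r 0.947), followed by ZNF165 (0.918), KMT2A (0.915), ADNP2 (0.909) and RNF169 (0.895). The points share libraries and baselines, and they include the vehicle control values of TNFAIP3 that chose the group. These correlations therefore describe the table and carry no test. Among the members NFKB2 and RELB were most alike (0.92), then NFKBIE with BIRC3 (0.813), RELA with NFKB2 (0.809) and TNFAIP3 with NFKBIZ (0.759). NFKBIA was most like TNFAIP3 (0.699), TNIP1 most like RELA (0.632) and NFKB1 most like BIRC3 (0.616).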

How the data were processed

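RNA was sequenced from 27 libraries. Per the labels and methods, the authors trimmed reads with Trim Galore 0.3.7, aligned them to hg19 with STAR 2.5.3a and deposited raw counts per gene, 1 column per library; the counting tool and annotation are not given in the sources used here. The members and gene lists were chosen with earlier results of these data known. Counts were tested with edgeR 4.0.16 in R 4.3.3 (TMM, filterByExpr, glmQLFit, glmQLFTest), with all groups of a line in a fit (15881 genes tested in A431, 13999 in MDA-MB-231), or for comparisons between lines with their untreated and CKI libraries (14848 genes). Calls needed a Benjamini-Hochberg adjusted p under 0.05 and a log2 fold change beyond 1 in size. The standard error is the log2 fold change divided by the root of F. Every replicate pair differed by more than sampling noise. Columns with no sample numbered 0. All members were named, and from each list up to 4 called genes of smallest adjusted p without overlap between groups, and the 5 genes most like TNFAIP3. CCL5, IKBKE, IKBKG and OTUD7B were not analysed here. Alternatives were DESeq2 1.42.0, scaling by RLE factors or by library size only, all genes unfiltered, only the compared groups, the adjusted p alone, 1 row per Ensembl ID, offsets for GC content and transcript length (lowess span 0.3), a replicate block, the vehicle control as reference, and each library left out. Fits were tested on simulated data.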

Additional observations from a re-analysis of the deposited data

Results flagged for a closer look

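5 member results differed between conditions by a test of the difference itself, and TNFAIP3 in the comparison of lines is given as a description. In MDA-MB-231 the response of TNFAIP3 to 5-FU was smaller when CKI was present, with a log2 difference of -1.26. In A431 the response to doxorubicin with CKI differed from the sum of the single responses by 2.52 for BIRC3, 1.38 for NFKBIE and -2.47 for NFKBIZ. Between the lines the response to CKI differed by 3.27 for NFKBIZ and by 2.53 for TNFAIP3, the latter given without a p because its A431 libraries chose the group. The vehicle control libraries carried 442 ± 48.1 CPM of NFKBIZ and 832 ± 25.0 CPM of TNFAIP3 (SD, n = 3), against 45.4 ± 2.68 and 82.4 ± 4.49 in untreated cells, so these differences depend on the control. Against the vehicle control the NFKBIZ difference between lines was -0.03 (adjusted p = 0.916), no longer detected, and its CKI and doxorubicin interaction was 0.82.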

How the results depend on the processing

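The 25 member results that met both thresholds, TNFAIP3 descriptions included, had 445 values under alternatives. Of these 435 kept their direction and side of the thresholds, 4 fell below a threshold and 6 changed sign. The adjusted p alone keeps all 25 by construction. Results not called in the main fit were not scored. Calls gained under an alternative, such as RELB under doxorubicin in A431 with the offsets (1.145), are therefore not in this tally. All 6 sign changes came from taking the vehicle control, not untreated cells, as the A431 reference: under CKI NFKBIZ was at -1.164 and TNFAIP3 at -1.311, under doxorubicin TNFAIP3 was at -1.887, in the CKI and doxorubicin interaction NFKBIZ was at 0.822, and in the cell line by CKI interaction NFKBIZ was at -0.03 (adjusted p = 0.916, no difference detected) and TNFAIP3 at -0.817. The 4 weaker values were BIRC3 under doxorubicin with library size alone (-0.898), BIRC3 between untreated lines with the offsets and the block (-0.995), and TNFAIP3 in CKI plus doxorubicin against doxorubicin with the offsets, without and with the block (0.974 in both). The cause of the weaker values was not tested. With the block, the difference between untreated lines is fitted at replicate 1 of each line, not at the group means. It is therefore a different quantity from the main value, and MDA-MB-231 untreated replicate 1 stood apart from its group.

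Of 239 counts of called members, 221 stayed within 1.5 times. With the adjusted p alone, by construction and with TNFAIP3 counted throughout, counts were 5 for CKI, 9 for 5-FU, 10 for CKI plus 5-FU against 5-FU, 6 against CKI and 6 for the interaction in MDA-MB-231, 6 for CKI against untreated, 8 against vehicle control, 10 for doxorubicin, 10 for CKI plus doxorubicin against doxorubicin, 8 against CKI and 8 for the interaction in A431, 7 between untreated lines and 5 for the cell line by CKI interaction. CKI plus 5-FU against CKI gave 2 with library size alone and 1 to 2 with 1 library left out (2 without CKI plus 5-FU replicate 3). The vehicle control as reference gave 4 for doxorubicin and 0 for the cell line by CKI interaction. It also added NFKBIA (1.367) in the CKI and doxorubicin interaction. The offsets with the replicate block gave 1 between untreated lines, a difference that the block fits at replicate 1 of each line.

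Replicate numbers did not pair the libraries: the correlations of same-numbered deviations ran from -0.21 to 0.12 and no comparison had all 3 above 0.1. The replicate block alone ended no member call and gave, for example, -1.263 for the TNFAIP3 interaction in MDA-MB-231. Depth did not limit the members, whose lowest count was 179.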
